A study of Bos taurus with 5 samples.

Results

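Protein quality control in muscle rests on 2 kinds of machine, and 96 genes that encode them were read out in longissimus dorsi, a large back muscle, of 5 cattle of the Jiaxian Red breed at 18 months of age. The 96 were the genes of the table whose symbols name proteasome subunits and their activators and assembly factors, the chaperones of the HSP90, HSP70, HSP60, TRiC, prefoldin and small heat shock families, J-domain and BAG partners, foldases, and heat shock factors. They were found among 9022 genes by symbol alone, with no use of their values. The set itself was chosen with earlier results of these data known. The immune subunits PSMB8 to PSMB10, the small heat shock genes HSPB6 to HSPB8 and P4HB were not counted among them. TCP11, TCP11L1 and TCP11L2 are among the 96 only because their names begin like TCP1, a TRiC subunit, and they belong to no chaperone family. Each animal gave 1 library of total RNA, and the 5 libraries formed 1 group with no treatment, so libraries are described side by side and no comparison of conditions was possible. The series sought candidate genes of muscle development. Values are FPKM, a fragment count per length of transcript and per size of library, here added up over the listed transcripts of each gene. The read depth behind them is unknown.

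The proteasome is the barrel-shaped protease that degrades proteins marked with ubiquitin. Its 20S core holds the cutting sites in rings of alpha and beta subunits, and the 19S particle recognises, unfolds and feeds in the substrate through a ring of ATPases; core and particle together form the 26S proteasome. Chaperones work on the other side of the balance: they hold or refold proteins through cycles of ATP use, and in striated muscle they also serve the maintenance of the sarcomere. No sequence of these genes is shown, since none was in the sources used here.

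Most of these genes were well expressed. Of the 96, 84 (87.5%) had a mean over the libraries of at least 1 FPKM, called detected below, against 68% of all genes in the table. The median over the 84 detected members was 20.2 FPKM, against 6.38 FPKM over the 6136 detected genes. Means of 10 FPKM or more were found for 54 members (56.2%), against 24.1% of all genes, and 4 members averaged at least 100 FPKM: HSPB1, HSPA1A, FKBP3 and HSPE1. The 12 members under 1 FPKM were CCT6A, CCT6B, HSP90AA1, HSPA1L, HSPA4L, HSPB11, DNAJB13, DNAJC5, DNAJC9, DNAJC27, PFDN5 and TCP11. In 6 of these 12 the numbers of the listed transcripts had gaps, so that transcripts of the gene may be missing from the table and the sum may be too low. Such gaps occurred in 17 of the 96 members (17.7%) and in 29.2% of all genes.

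**Figure D1:**
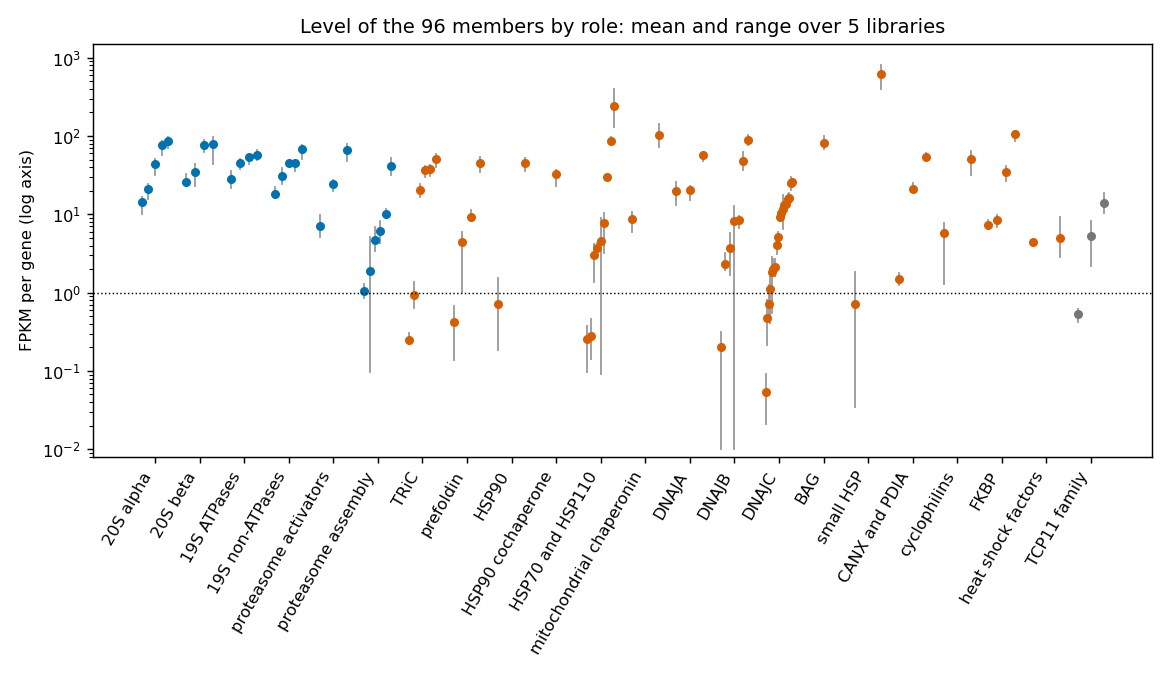
Each point is the mean FPKM of a gene over the 5 libraries on a log axis, and each bar runs from its lowest to its highest library. Blue points are proteasome genes, orange points chaperones, their partners and the heat shock factors, and grey points the TCP11 family. The dotted line is 1 FPKM. Values under 0.01 FPKM, including those listed at 0, are drawn at 0.01. HSPB1 and HSPA1A stand highest, and all 27 listed proteasome genes have a mean above 1 FPKM.

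Of 33 symbols of 26S proteasome subunits sought, only 18 were listed. All 18 were detected, with a median of 45.6 FPKM and means between 14.3 and 85.5 FPKM. Counts of 26S subunits, here and below, cover these 18 only. In the alpha rings, which form the gate of the core, PSMA3 averaged 85.5 ± 10.8 FPKM (SD, n = 5), PSMA7 75.8 ± 11.7, PSMA5 43.7 ± 7.54, PSMA2 21.3 ± 4.10 and PSMA4 14.3 ± 2.59. The core holds the products of these 5 genes in equal number, and their mean mRNA levels were spread over a wide range. PSMA3 was at 69.4, 82.5, 92.2, 97.8 and 85.7 FPKM in libraries 1 to 5, and PSMA7 at 56.5, 78.8, 80.9, 87.7 and 75.3 FPKM. Library 1 was the lowest for both.

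In the beta rings, PSMB3 averaged 78.1 ± 21.3 FPKM, PSMB7 76.7 ± 10.3, PSMB5 35.04 ± 7.51 and PSMB2 25.8 ± 4.03 (SD, n = 5). PSMB5 and PSMB7 carry the chymotrypsin-like and trypsin-like cutting sites. PSMB3 was the most variable 26S gene, at 44.2, 71.1, 91.2, 96.8 and 87.3 FPKM in libraries 1 to 5, and PSMB5 was at 23.3, 34.0, 38.4, 43.6 and 35.97 FPKM. For both, library 1 lay below the range of the other 4 libraries and library 4 was highest.

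In the 19S particle the ATPase genes PSMC6, PSMC1, PSMC3 and PSMC5 averaged 57.9 ± 6.05, 54.5 ± 6.11, 45.7 ± 5.11 and 28.5 ± 6.17 FPKM (SD, n = 5). PSMC1 was at 43.9 FPKM in library 1 and between 54.98 and 58.9 FPKM in the others. PSMC5 departed from this order, at 26.1, 36.1, 33.9, 21.5 and 25.2 FPKM in libraries 1 to 5, with library 4 lowest; its listed transcripts had a gap. Among the other 19S subunits, PSMD2, a scaffold of the base, averaged 68.8 ± 10.3 FPKM, PSMD1, also a scaffold, 45.8 ± 5.66, PSMD12, a lid subunit, 45.4 ± 2.48, the lid subunit PSMD11 30.9 ± 5.68, and the lid subunit PSMD13 18.3 ± 2.80. PSMD12 was among the most even members, at 45.9, 47.1, 45.6, 41.2 and 47.3 FPKM. PSMD11 was highest in library 2, at 39.6 FPKM, and lowest in library 4, at 24.3 FPKM, and its listed transcripts had a gap too. PSMD13 overlaps COX8B and NBAS in the table's coordinates, and without a stated strand the reads of overlapping genes cannot be told apart.

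Regulators of the core differed widely in level. PSME4 encodes PA200, a large activator that caps the 20S core in the nucleus, and PSME3 the nuclear activator of the 11S family. PSME4 was at 48.5, 75.8, 65.3, 67.1 and 79.3 FPKM in libraries 1 to 5 and PSME3 at 5.10, 9.74, 9.20, 5.49 and 6.37 FPKM. PSME4 exceeded PSME3 in 5 of 5 animals, by 8.45-fold (mean log2 ratio of FPKM + 1 of 3.08 ± 0.33, SD, n = 5; exact sign-flip p = 0.063, adjusted 0.075). PSME2, a subunit of the cytoplasmic 11S activator, averaged 24.4 ± 3.01 FPKM from a single transcript, numbered 202.

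Assembly factors of the proteasome lay lower than its subunits, apart from POMP. POMP, the maturation factor that leaves the core by being its first substrate, averaged 41.6 ± 7.35 FPKM (SD, n = 5). The 19S assembly chaperones PSMD5, PSMD9 and PSMD10 averaged 10.2 ± 1.11, 6.13 ± 1.72 and 4.71 ± 1.36 FPKM, and PAAF1, which binds the 19S ATPases, 1.06 ± 0.187. The single listed transcript of PAAF1 was numbered 202, so its sum may be partial. PSMG4, a chaperone of alpha ring assembly, was at 1.05, 0.921, 0.0960, 2.12 and 5.21 FPKM in libraries 1 to 5. Libraries 3 and 5 thus marked its ends, and its SD of 0.93 on the log2(FPKM + 1) scale was the greatest among the 27 proteasome genes.

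Of 3 immune subunits that replace the constitutive cutting subunits, PSMB9 and PSMB10 were listed, and neither is a member of the set. PSMB10 was at 10.004, 7.30, 10.4, 10.3 and 14.1 FPKM in libraries 1 to 5, and its constitutive counterpart PSMB7 at 61.9, 76.6, 88.4, 84.1 and 72.5 FPKM. PSMB10 lay below PSMB7 in 5 of 5 animals, with a mean log2 ratio of -2.78 ± 0.38 (SD, n = 5; exact sign-flip p = 0.063, adjusted 0.075). PSMB9 averaged 6.33 ± 1.64 FPKM, with its highest values, 8.80 and 7.25 FPKM, in libraries 3 and 1.

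Library 1 held the lowest levels of the proteasome genes as a group. There, 17 of the 18 listed 26S subunits lay below their own mean over the libraries, and PSMD12 was the exception. The same held for 49.7% of detected genes. It held for 64% of genes with a mean of at least 10 FPKM, the level of all 18. Library 1 was the lowest of the 5 for 14 of the 18, against 26.5% of detected genes. The median deviation of the 18 from their own means was -0.30 in library 1 and 0.06, 0.11, 0.16 and 0.01 in libraries 2 to 5, on the log2(FPKM + 1) scale, beside 0.00 in library 1 for all detected genes. The summed FPKM of the 18 was 671 in library 1 and between 871 and 933 in the others. All 9 activators and assembly factors lay below their own mean in library 1 as well, against 49.7% of detected genes. With each library scaled to the same summed FPKM, 8 of 9 did, against 39.2% of detected genes. Since the libraries were not grouped by any label, these counts describe 1 animal's library and carry no test.

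The chaperones, foldases and their partners shared the low values of library 1, less evenly. Counted together with HSF1 and HSF2, they had 55 detected members. Of these, 42 were lower than their own mean in library 1, against 49.7% of detected genes. In libraries 3 and 4, 40 and 41 were higher, against 57% and 52.3% of detected genes. Over all 84 detected members the count below was 69 in library 1, against 49.7% of detected genes. The counts above were 36, 61, 64 and 55 in libraries 2 to 5. The corresponding shares of detected genes above their mean were 46.2%, 57%, 52.3% and 53.4%. Abundant genes were themselves more often low in library 1: of the 2172 genes with a mean of at least 10 FPKM 64% lay below their own mean there, beside 50 of the 54 members of that level. With each library scaled to the same summed FPKM, 62 of the 84 lay below in library 1, 16 of the 18 26S subunits among them, against 39.2% of detected genes. In library 4 the number above fell from 64 to 49 of 84, against 39.2%. No share of genes of at least 10 FPKM is given here for libraries 2 to 5. Counts in those libraries, here and in the groups below, are thus not matched for level.

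**Figure D2:**
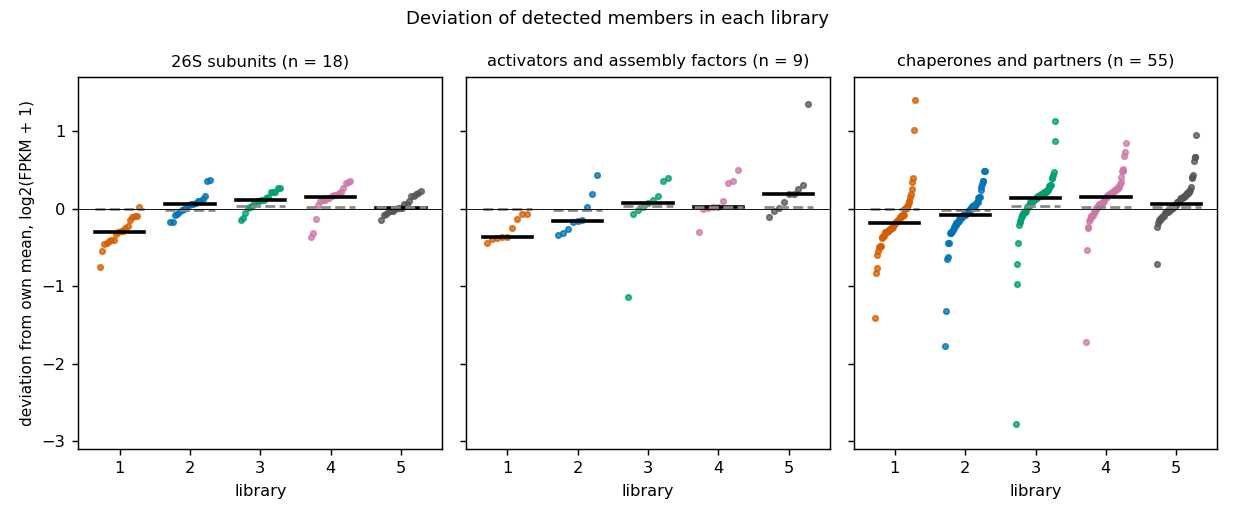
Each point is a detected gene's deviation from its own mean over the 5 libraries, on the log2(FPKM + 1) scale, by library. The left panel holds the 26S subunits and the middle panel proteasome activators and assembly factors. The right panel holds chaperones, their partners and the heat shock factors. Black bars are the medians of the points and dashed grey bars the medians of all detected genes; in the left panel the median of library 1 is -0.30 and those of the other libraries lie between 0.01 and 0.16.

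Library 1 differed from the others in some other measures and not in all. Its summed FPKM was the lowest, 193706 against 204180 to 223251. Of 6 fibroblast markers 3 were listed, and their summed level was 845 FPKM in library 1, 769 in library 4 and 394 to 541 in the others. That sum was carried by COL3A1 and COL1A2, and the third, PDGFRA, was at 25.9 FPKM in library 1, below its mean of 26.3. Of 6 smooth muscle and pericyte markers 4 were listed, summing to 60.4 FPKM in library 1 and 23.0 to 43.4 in the others. ACTA2 carried most of that sum, with 50.2 FPKM in library 1 and 20.1 to 40.9 in the others. MYH11 was also highest in library 1, with 7.82 FPKM beside values no higher than 0.821. RGS5, with a mean of only 0.344 FPKM, was at 0.559 FPKM in library 1 and nearly as high, 0.536, in library 2. PDGFRB went the other way, with 1.80 FPKM in library 1, below its mean of 2.27. The transcript numbers of ACTA2, MYH11 and RGS5 had gaps, so their levels may be partial. Of 8 muscle fibre markers 7 were listed, summing to 19813 FPKM in library 1 and 21135 to 23755 in the others, or 10.2% of the summed FPKM beside 10.4% to 10.7%. Of the 7, 3 lay above their own mean in library 1, and MYH7 and TNNT3 were highest there. The 6 of 7 endothelial markers listed summed to 103 FPKM in library 1 and 89.8 to 103 in the others, and the 2 of 6 leukocyte markers listed, PTPRC and CD3E, to 3.97 against 1.77 to 3.52. CIDEC was the only listed adipocyte marker of 5, with a highest value of 0.809 FPKM and a listed 0 in library 5. The part of these differences in the low proteasome and chaperone values was not tested, and in bulk tissue fewer cells of a type cannot be told apart from less RNA per cell.

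Genes that work with the proteasome were listed in 9 of 21 cases, and 7 of these were detected. All 7 lay below their own mean in library 1, against 49.7% of detected genes and 64% of those of at least 10 FPKM. UBE3C was listed at 0 in every library but library 2, and without it the count was 6 of 6. NFE2L1, the transcription factor known to restore proteasome synthesis, was at 44.3, 55.1, 56.0, 54.9 and 49.8 FPKM in libraries 1 to 5. ECPAS, an adaptor of the 26S proteasome, was at 81.4 FPKM in library 1 and between 100.3 and 115 FPKM in the others, and UCHL5, a deubiquitinase of the 19S particle, at 22.1 and between 26.7 and 28.7 FPKM. For these 3 genes, as for most 26S subunits, library 1 was the lowest. VCP, the unfoldase that passes substrates to the proteasome, averaged 0.117 FPKM from a single transcript whose numbering has a gap, so its sum may be partial. Such gaps were found for 7 of the 9 listed genes, NFE2L1 and ECPAS among them, and these sums may be partial too. UCHL5 had no gap.

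The small heat shock gene HSPB1 was the most abundant member. HSP27, its product, binds unfolding proteins without using ATP and associates with the cytoskeleton of muscle. HSPB1, on chromosome 25 from 34345339 to 34347009, was at 399, 445, 817, 755 and 732 FPKM in libraries 1 to 5, a mean of 629.6 ± 193 (SD, n = 5). Libraries 1 and 2 lay well below the other 3, which did not overlap with them. Among related muscle chaperones outside the set, HSPB8 averaged 300.02 ± 50.6 FPKM, HSPB6 155 ± 14.0 and HSPB7 74.9 ± 18.5, and none had this order: HSPB8 was at 327 FPKM in library 2, and HSPB6 and HSPB7 were highest in library 1. HSPB11, named as a small heat shock gene but known as a component of intraflagellar transport, averaged 0.711 ± 0.732 FPKM.

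HSPA1A, the heat-inducible cytosolic HSP70, came second and varied in another order. The gene, on chromosome 23 from 27520317 to 27522790, was at 129.9, 313, 164, 401 and 201 FPKM in libraries 1 to 5, a 3.08-fold range. Libraries 2 and 4 were the high ones. HSP90AA1, the inducible cytosolic HSP90, was likewise highest in libraries 2 and 4, with 1.54 and 1.20 FPKM against 0.183, 0.332 and 0.338 in libraries 1, 3 and 5. The table lists a single HSP90AA1 transcript, numbered 202, so this level does not measure the whole gene. HSPA1A has a near-identical copy in mammals, whose reads may be shared with it, and RefSeq gives HSPA1B as a synonym of it.

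Other heat-inducible partners did not share the order of HSPA1A. BAG3, the muscle cochaperone that links HSP70 to small heat shock proteins, was at 68.1, 86.4, 100.1, 75.5 and 78.3 FPKM in libraries 1 to 5. DNAJB4, a J-domain partner of HSP70, was at 76.0, 99.98, 104, 83.9 and 87.3 FPKM. In both, libraries 2 and 3 were the highest and library 1 the lowest. STIP1, the adaptor that joins HSP70 to HSP90, was at 23.2 FPKM in library 1 and between 32.9 and 37.4 FPKM in the others. Of 20 known targets of heat shock factor 12 were listed, CHORDC1 among them from outside the set, and 10 were detected. In library 1, 9 of 10 were below their own mean, against 49.7% of detected genes and 64% of those at 10 FPKM or more. In library 3, 9 were higher than their own mean, against 57% of detected genes. Without the entry listed as HSPD1, whose position is in doubt, these counts were 9 and 8 of 9.

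**Figure D3:**
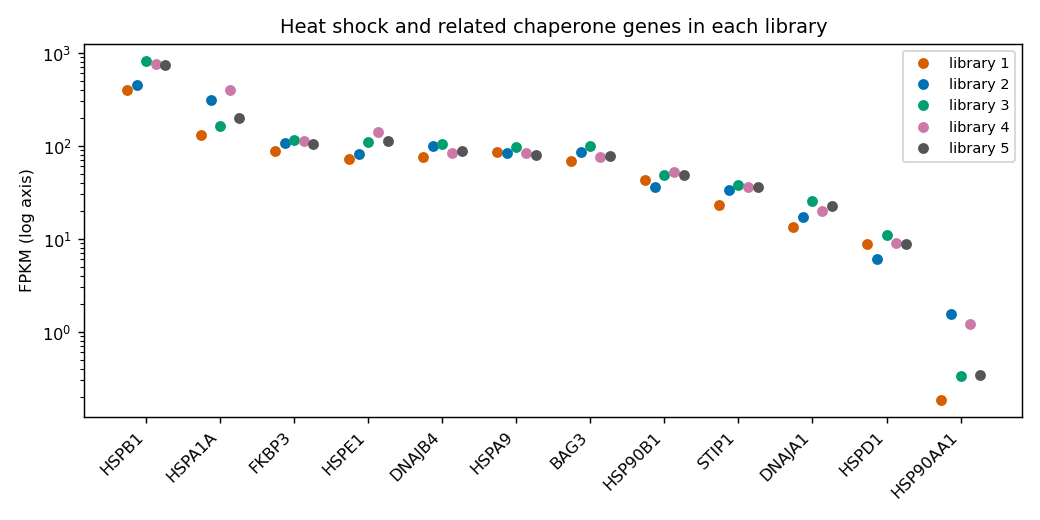
FPKM of 12 chaperone genes on a log axis, with 1 point for each of the 5 libraries. HSPB1 has its low points, 399 and 445 FPKM, in libraries 1 and 2, and the others lie at 732 or more, while HSPA1A and HSP90AA1 have their highest points in libraries 2 and 4.

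The heat shock factors themselves were low and, for HSF1, even. HSF1, the main activator of heat shock genes, was at 4.86, 4.62, 4.61, 4.16 and 4.12 FPKM in libraries 1 to 5. HSF2 was at 4.35, 4.02, 9.30, 2.89 and 4.28 FPKM, so that library 3 lay above the rest. The 2 genes did not separate: HSF2 was higher in 2 of 5 animals, with a mean log2 ratio of 0.04 ± 0.49 (SD, n = 5; exact sign-flip p = 0.938, adjusted 0.938). With only the most abundant transcript of each gene, HSF2 was higher in 5 of 5 animals (mean log2 ratio 0.62). HSF1 has 2 listed transcripts. HSF2 has 1, numbered 202, so its sum may be partial.

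The remaining HSP70 relatives fell into even and uneven genes. HSPA9, the mitochondrial HSP70, was at 86.5, 84.2, 97.5, 83.6 and 80.2 FPKM in libraries 1 to 5, and HSPA4, a nucleotide exchange factor of HSP70, at 27.99, 28.7, 31.1, 31.4 and 30.9. Their SDs, 0.11 and 0.07 on the log2(FPKM + 1) scale, were smaller than those of most members, whose median SD was 0.23 beside 0.25 for all detected genes. HYOU1, the HSP110 relative of the endoplasmic reticulum, averaged 3.68 ± 0.674 FPKM, and HSPA14, a ribosome-bound HSP70 relative, 7.65 ± 2.96 (SD, n = 5). HSPA12B, an endothelial HSP70 relative, was at 8.94, 0.0923, 7.23, 0.135 and 6.24 FPKM, near 0 in libraries 2 and 4. It too had a single listed transcript, numbered 202. HSPA12A was at 3.63, 2.69, 4.12, 3.34 and 1.37 FPKM, and HSPA1L and HSPA4L reached at most 0.467 and 0.370 FPKM.

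The chaperonins of mitochondria and cytosol were listed in part. HSPE1, the lid of the mitochondrial chaperonin, was at 71.7, 80.5, 109, 141 and 113 FPKM in libraries 1 to 5, high in libraries 3 to 5 as HSPB1 was. Its single listed transcript was numbered 202, so its sum may be partial. The gene listed as HSPD1, the barrel of that chaperonin, was at 8.82, 6.02, 10.9, 8.98 and 8.76 FPKM. That entry lay on chromosome 22 from 13635727 to 13637448 with 1 transcript, whereas RefSeq (ARS-UCD2.0) places HSPD1 on chromosome 2, next to HSPE1. HSPE1 exceeded it in 5 of 5 animals by 10.6-fold (mean log2 ratio 3.403 ± 0.36, SD, n = 5; exact sign-flip p = 0.063, adjusted 0.075), a ratio that may therefore not describe the chaperonin's own barrel gene. HSPD1 was the single member of 95 matched by symbol to RefSeq that did not overlap its place there.

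TRiC, the ring of 8 kinds of subunit that folds actin and tubulin, had 4 detected subunits, with means between 20.2 and 50.3 FPKM. CCT8 averaged 50.3 ± 8.25 FPKM, CCT7 37.9 ± 5.92, CCT2 36.4 ± 4.86 and CCT5 20.2 ± 3.52 (SD, n = 5). All 4 were under their own mean in both library 1 and library 2, against 49.7% and 53.8% of detected genes. Of genes with a mean of at least 10 FPKM, 64% were under theirs in library 1. All 4 were over their own mean in libraries 3 and 4, against 57% and 52.3% of detected genes. CCT8, for instance, was at 39.9, 43.8, 57.1, 58.9 and 52.0 FPKM in libraries 1 to 5. CCT6B, a testis-enriched paralog of CCT6A, averaged 0.936 ± 0.267 FPKM and CCT6A 0.247 ± 0.0358, the latter from a single transcript numbered 202. CCT6B was higher in 5 of 5 animals, by 1.54-fold (exact sign-flip p = 0.063, adjusted 0.075), a ratio that the 1 FPKM added to each value makes smaller and that sets a possibly partial CCT6A against CCT6B.

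Prefoldin, which hands actin and tubulin chains to TRiC, had 4 listed subunits. PFDN4 averaged 45.3 ± 8.15 FPKM, PFDN2 9.24 ± 1.18 and PFDN5 0.422 ± 0.204 (SD, n = 5), the last from transcript 202 alone. PFDN1 was at 5.59, 1.01, 5.96, 3.97 and 5.78 FPKM in libraries 1 to 5, low in library 2.

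J-domain proteins, which deliver clients to HSP70 and start its ATP use, were the largest family with 28 members, 24 of them detected. Among the DNAJA class, DNAJA2 was at 48.5, 52.6, 60.2, 63.0 and 58.1 FPKM in libraries 1 to 5 and DNAJA1 at 13.4, 17.0, 25.6, 19.8 and 22.6 FPKM. DNAJA2 was the more abundant of these cytosolic partners in 5 of 5 animals, by 2.83-fold (mean log2 ratio 1.501 ± 0.23, SD, n = 5; exact sign-flip p = 0.063, adjusted 0.075). DNAJA3, the mitochondrial form, averaged 20.2 ± 3.06 FPKM. All 3 were under their own mean in libraries 1 and 2, against 49.7% and 53.8% of detected genes. Of genes with a mean of at least 10 FPKM, 64% were under theirs in library 1. In libraries 3 to 5 all 3 were over their own mean, against 57%, 52.3% and 53.4% of detected genes. With each library scaled to the same summed FPKM, 2 of 3 were over it in library 4.

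In the DNAJB class DNAJB6, mutated in a limb-girdle muscular dystrophy, was at 36.6, 39.6, 55.8, 46.2 and 62.8 FPKM in libraries 1 to 5. Its 5 listed transcripts overlap, and DNAJB6-203 held 43.6% to 73.1% of the gene. DNAJB6-202 was at 15.2 FPKM in library 4, or 32.9% of the gene, and at most 4.09 FPKM in the others. DNAJB5 was listed at 0 in library 3, beside 12.9, 7.79, 10.4 and 9.89 FPKM in libraries 1, 2, 4 and 5. DNAJB12, an anchor of HSP70 at the endoplasmic reticulum, ranged from 1.698 FPKM in library 3 to 5.82 in library 5, DNAJB14 averaged 2.33 ± 0.499 FPKM, and DNAJB13, an axonemal gene, had a highest value of 0.310 FPKM and a listed 0 in library 2. Members listed at 0 in some library numbered 2 of 96 (2.08%), against 12.8% of all genes.

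The DNAJC class held both the steadiest member and one of the more variable ones. DNAJC13, a gene of endosome traffic, was at 10.3, 10.3, 10.4, 10.4 and 9.88 FPKM in libraries 1 to 5, with the smallest SD of the detected members, 0.03. DNAJC7, which bridges HSP70 and HSP90, averaged 25.95 ± 1.80 FPKM. DNAJC12, a partner of aromatic amino acid hydroxylases, was at 7.40, 6.49, 9.15, 17.9 and 17.8 FPKM, so that libraries 4 and 5 lay apart from the other 3. The mitochondrial DNAJC11, DNAJC15 and DNAJC19 averaged 15.5 ± 2.29, 2.12 ± 0.401 and 2.03 ± 0.420 FPKM, and DNAJC28 13.3 ± 1.495 (SD, n = 5). The splicing-linked DNAJC8 and DNAJC17 averaged 13.8 ± 2.45 and 5.10 ± 0.776 FPKM, and DNAJC24, which acts in diphthamide synthesis, 4.05 ± 0.893. DNAJC4 lay between 0.549 and 2.86 FPKM and DNAJC25 between 0.413 and 1.66 FPKM, both lowest in library 1.

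Among the listed genes of folding in the endoplasmic reticulum a few were abundant, and HSPA5 was not listed. CANX, the membrane lectin chaperone calnexin, was at 47.7, 48.8, 51.2, 59.1 and 60.7 FPKM in libraries 1 to 5, and HSP90B1, the HSP90 of this compartment, at 42.4, 36.2, 47.8, 52.7 and 48.2. The disulfide isomerase gene PDIA6 averaged 21.1 ± 2.42 FPKM and PDIA5 1.51 ± 0.214; of the J-domain cofactors DNAJC3 averaged 25.5 ± 4.22, DNAJC10 16.1 ± 2.54, DNAJC1 9.32 ± 1.20 and DNAJB11 8.35 ± 1.097 (SD, n = 5). Of these genes with HYOU1 and FKBP2, 10 in all, 9 were higher than their own mean in library 4, against 52.3% of detected genes, and 8 were lower than it in library 1, against 49.7%. With each library scaled to the same summed FPKM these counts were 7, against 39.2%, and 6, against 39.2%. Their median SD, 0.17, lay below that of all detected genes. Among 19 genes of folding and stress signalling in this compartment chosen from outside the set, 11 were listed and 8 detected, with 4 above their own mean in library 1, against 50.3% of detected genes. ATF6, a stress sensor, averaged 14.0 ± 1.13 FPKM, and SERPINH1, the collagen chaperone, ranged from 17.4 FPKM in library 2 to 32.2 in library 1.

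Prolyl isomerases, which turn proline bonds during folding, closed the set. FKBP3, a nuclear form, was at 87.0, 108, 116, 112 and 104 FPKM in libraries 1 to 5, and FKBP8, an anchored form of mitochondria, averaged 35.1 ± 5.57 FPKM (SD, n = 5). FKBP15 and FKBP2 averaged 8.39 ± 1.20 and 7.31 ± 0.762 FPKM. The cyclophilin PPIA was at 51.8, 32.0, 55.02, 63.9 and 53.0 FPKM, lowest in library 2; it has many processed copies in mammalian genomes whose reads may be shared with it. The spliceosomal cyclophilin PPIH was at 1.30, 6.43, 6.13, 7.73 and 7.17 FPKM, low in library 1.

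Most members had 1 listed transcript (73 of 96), and in some of the other 23 the shares of the transcripts differed between libraries. HYOU1-202 was the main transcript of its gene throughout, with 89.8%, 58.3%, 62.1%, 92.2% and 50.7% of it in libraries 1 to 5. HYOU1-203 was listed at 0 in libraries 1 and 4, beside 0.920, 1.28 and 1.82 FPKM in libraries 2, 3 and 5. PPIH-203 had the same pattern of zeros: 0 in libraries 1 and 4, and 74.1%, 89.9% and 90.3% of the gene in libraries 2, 3 and 5. In library 4 PPIH-202 held 83.5% of the gene at 6.45 FPKM. PSME3-202 held 65.95% of its gene in library 1, 36.4% in library 2 and 5.90% to 13.4% in libraries 3 to 5. These are estimates that divide shared reads between overlapping transcripts, and a listed 0 does not exclude the transcript.

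**Figure D4:**
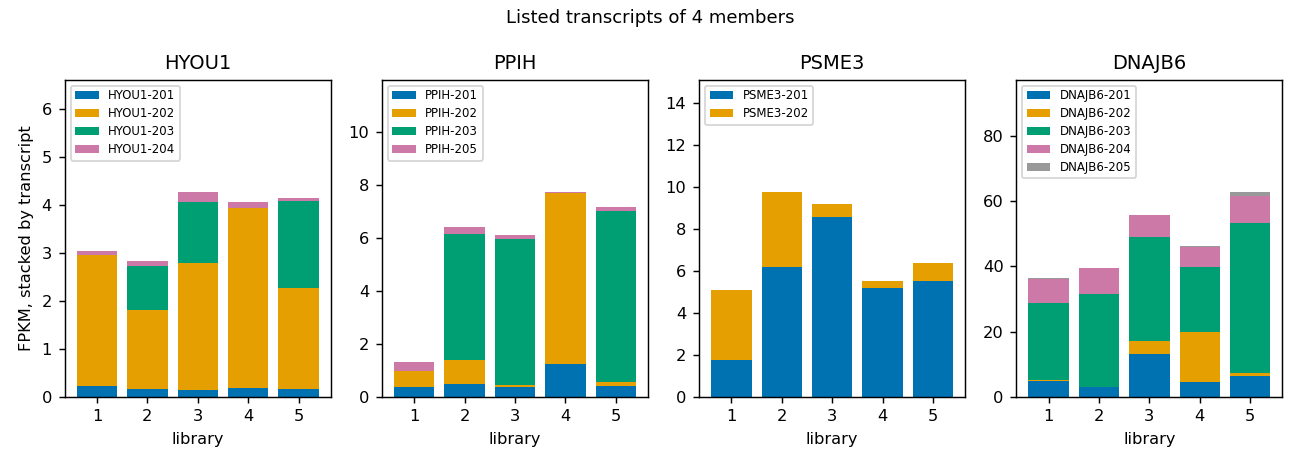
Stacked bars give the FPKM of each listed transcript of HYOU1, PPIH, PSME3 and DNAJB6 in the 5 libraries. HYOU1-203 and PPIH-203 (green) are missing in libraries 1 and 4, and PSME3-202 (orange) holds the larger part of its gene only in library 1 of the 5.

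The spread of the members was close to that of other genes. An SD of at least 0.5 on the log2(FPKM + 1) scale was found for 11 of 84 (13.1%), against 15.9% of detected genes: DNAJB5, DNAJB12, DNAJC12, HSF2, HSPA1A, HSPA12B, HSPA14, PPIH, PFDN1, PSMG4 and TCP11L1. Only HSPA12B and DNAJB5 had an SD of at least 1, at 1.60 and 1.57 (2.38%, against 3.63% of detected genes). Of the 2 TCP11 relatives that were detected, TCP11L1 ranged from 2.19 FPKM in library 3 to 8.21 in library 2, with transcript TCP11L1-204 listed at 0 in libraries 3 and 4, and TCP11L2 averaged 14.0 ± 3.12 FPKM. A library standing apart from the other 4, by the gap between them, was found for 8 of 84 members (9.52%), against 7.37% of detected genes, a share near the background.

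**Figure D5:**
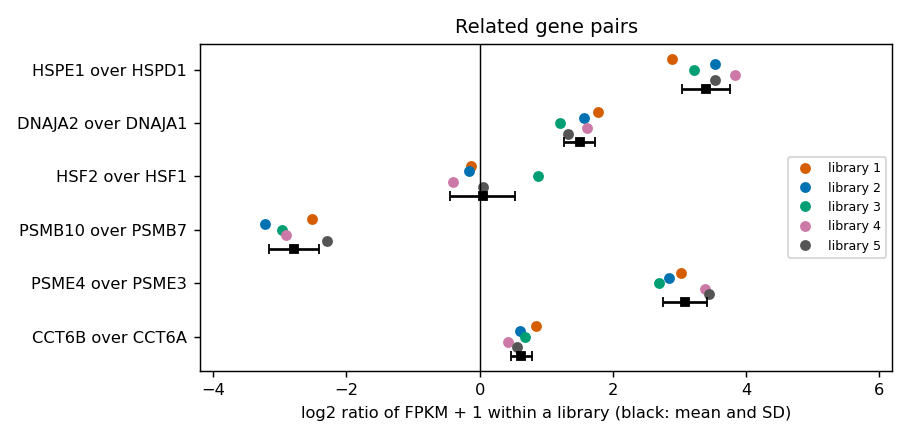
Coloured points are the log2 ratio of FPKM + 1 of 6 related gene pairs in each of the 5 libraries, and black squares with bars the mean and SD. All points of 5 pairs lie on 1 side of 0, and those of HSF2 over HSF1 lie on both.

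Of 29 related pairs considered, 6 had both genes listed, and 5 of these pointed 1 way in every animal. For 5 animals the smallest p of the exact sign-flip test, two-sided, is 0.063, so none of the 6 pairs could pass an adjusted p of 0.05. In limma, fitted to the ratio of every detected gene to the second gene of a pair and adjusted over all of them, those same 5 pairs passed and HSF2 over HSF1 did not (adjusted p = 0.836). Passing was common in such a fit. For CCT6B over CCT6A limma's p of 0.000246 became only 0.000284 when adjusted over 6137 genes. The share of fitted genes that passed was not computed, so the 5 passes alone do not set these pairs apart. All ratios of such a fit share the second gene, so limma's p-values may be too small. The size and direction of each ratio are therefore given. Limits stated above apply to those of HSPE1 over HSPD1, CCT6B over CCT6A and HSF2 over HSF1.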

How the data were processed

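Per the file headers, the deposited values are FPKM per transcript and library, computed by the authors. The submitters' processing notes name HTSeq 0.6.0, DESeq2 1.10.1 and the build UMD3.1, with no word on their use; the aligner and the FPKM estimator are not given in the sources used here. Of 95 members matched by symbol to RefSeq (ARS-UCD2.0), 94 overlapped their place there, and printed coordinates are those of the table, whose build is not stated there.

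Transcript FPKM were summed per gene identifier and analysed as log2(FPKM + 1), with a mean of 1 FPKM as the detection limit (Python 3.11.15, pandas 2.3.3, scipy 1.17.1). Pairs were compared within libraries by an exact permutation test that flips signs (two-sided), with Benjamini-Hochberg adjustment over 6 pairs, and with limma 3.58.1. A library stood apart where Dixon's gap ratio exceeded 0.71 (0.829 for 4 libraries). Scripts were tested on simulated data. No counts were given, so no counting interval was computed. The members and lists were chosen with earlier results of these data known; all members may be named, and other genes come from fixed lists of partners and cell type markers. Values in every library are due, in each role, for the 3 members of highest mean and the one of greatest SD, for pairs, for members listed at 0 in a library and above 5 FPKM in another, and for members with a library apart; the others given so were chosen after their values were seen. Alternatives were a pseudocount of 0.1, limits of 5 FPKM and none, 2 scalings, the highest transcript alone, leaving out members with numbering gaps, and leaving out each library. Genes with no row, such as HSPA8, HSPA5 and HSP90AB1, were not analysed here.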

Additional observations from a re-analysis of the deposited data

Results flagged for a closer look

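In 8 members 1 library lay apart from the other 4, by a gap of more than 0.71 of the whole range on the log2(FPKM + 1) scale; chance gives about 1 in 20 genes, and 7.37% of detected genes met the limit. Library 1 was the low one for PPIH (gap ratio 0.848), PSMC1 (0.767), PSMD1 (0.764) and STIP1 (0.734). PSMD1 was at 35.96 FPKM there and between 45.8 and 49.3 FPKM in the others. Library 3 was low for DNAJB5 (0.826), which was listed at 0 there, and library 2 for PFDN1 (0.729). Library 4 was low for PSMD12 (0.738) and library 5 for DNAJC13 (0.760), whose ranges were narrow, 41.2 to 47.3 and 9.88 to 10.4 FPKM. With each library scaled to the same summed FPKM the ratio fell under the limit for PSMC1 (0.684), PSMD1 (0.674), PSMD12 (0.677), DNAJC13 (0.419) and PFDN1 (0.678), and with median-ratio size factors for PSMD12 (0.548) and DNAJC13 (0.597). That of PPIH was 0.069 with its most abundant transcript alone. Under these 3 alternatives DNAJB5 and STIP1 kept a ratio above the limit.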

How the results depend on the processing

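The count of members above their own mean stayed within 1.5 times its value in each library under every alternative but 1: with a detection limit of 5 FPKM it was 8 of 67 in library 1. Leaving out single libraries gave 14 to 17 in library 1, 26 to 44 in library 2, 54 to 64 in library 3, 59 to 65 in library 4 and 45 to 59 in library 5. The 26S count below the mean in library 1, whose alternatives were added after seeing the data, ran from 16 to 18 without single libraries. Without the TCP11 family and HSPD1, also chosen after seeing the data, 13 of 81 lay above in library 1 and 62 in library 4. Counts of named gene groups under a fixed total, and without HSPD1 or UBE3C, were added after seeing the data too. Scaling to a fixed total moved the median deviation of all detected genes from 0.00 to 0.08 in library 1 and from 0.02 to -0.07 in library 4.

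The number of members with an SD of at least 0.5 fell to 6 of 67 at a limit of 5 FPKM and to 7 of 73 without members with numbering gaps, and ran from 7 (without library 3) to 13 without single libraries. The number with a library apart was 15 without library 2, 4 without library 3 and 5 without library 5, where 4 libraries have a higher limit, and so ran from 4 to 15. The median level moved to 30.0 FPKM at a limit of 5 FPKM and to 14.2 FPKM with none, and ran from 19.6 to 21.2 FPKM without single libraries. Members listed at 0 numbered 4 with the highest transcript alone, and 1 without library 2 or library 3, against 2 otherwise. The pairs with 1 direction numbered 5 without any single library. Pairs past an adjusted p of 0.05 numbered 0 in the exact test, where 5 of 6 had the smallest possible p of 0.063, and 5 in limma. The limma count alone does not set these pairs apart from other fitted genes. No comparison of paired samples was possible because there was 1 group, and only genes were paired, within libraries.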
